A study of Mus musculus with 2 samples.

Results

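The distal block of mouse chromosome 11 comprises the CTCF peaks whose centre lies on that chromosome at or above position 115000001 on mm9, up to its last peak. It held 407 of 51421 NPC peaks (0.792%) and 381 of 54151 ESC peaks (0.704%), where NPC stands for neural precursor cells and ESC for embryonic stem cells. Places within it are given below in Mb from its start. CTCF is a zinc-finger protein that binds a long, directional DNA motif. Together with the ring-shaped cohesin complex it holds the anchors of many chromatin loops, and its sites often lie at the borders of chromatin domains. Most CTCF sites are occupied in many cell types and a smaller set changes with cell type. The distal end of mouse chromosome 11 is a gene-rich part of the genome.

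CTCF-bound DNA had been immunoprecipitated and sequenced in 2 mouse samples. The neural precursor cells (NPC) had been derived from the E14 embryonic stem cell line and were grown in N2-supplemented medium with basic FGF and EGF. The embryonic stem cells (ESC) were the E14 line itself, IB10 cells grown in serum with LIF, which holds them in the undifferentiated state. Both samples thus share the E14 background and the anti-CTCF antibody, and each was 1 library. How far cultures of 1 kind vary is thus unknown, cell types were compared without a test, and every interval below covers counting error over peaks only. The authors deposited 1 MACS peak list per library, with a score per peak that the files do not define. The lists give no read counts, so the depth behind them is unknown. Scores are set side by side only as percentiles within their own list. The series asks how CTCF binding relates to chromatin looping, and the comparison here asks where sites differ between NPC and ESC.

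The distal block spans 6.83 Mb. It was picked because earlier results on these lists showed many NPC-only peaks there, that is NPC peaks that no ESC peak overlaps by even 1 bp. The counts of NPC-only and ESC-only peaks below therefore describe the choice and support nothing by themselves. At the near edge the first NPC peak inside lay at chr11:115014866-115015434 (score 589) and the last one outside at chr11:114965923-114966205 (score 112). The first ESC peak inside lay at chr11:115014862-115015513 (score 473) and the last outside at chr11:114965814-114966303 (score 187). All 4 of these edge peaks overlapped a peak of the other list. At the far edge both lists ended in an overlapping pair, at chr11:121827283-121827576 in NPC (score 170, percentile 21.9) and chr11:121827137-121827734 in ESC (score 928, percentile 70.5).

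Of the 407 NPC peaks in the block, 111 were NPC-only (27.3%, 95% interval 23.0 to 31.9), where 21.4% of the whole NPC list was NPC-only. Of the 381 ESC peaks, 89 were ESC-only (23.4%, 19.2 to 27.9), where 26.0% of the whole ESC list was ESC-only. Outside the block 54.3% of NPC peaks in the lowest of 10 score bins and 0.35% in the highest were NPC-only, so each share was also set beside the share expected if block peaks were unshared at the rate of their score bin elsewhere in the list. That expected share was 20.0% for NPC, or 81.6 peaks against the 111 found. For ESC it was 23.4%, or 89.3 peaks against the 89 found. The block thus had more NPC-only peaks than its scores give and as many ESC-only peaks as its scores give. The shared part was large in both lists, with 296 NPC and 292 ESC peaks, of which 288 formed 1-to-1 pairs. The block had 1.07 NPC peaks for each ESC peak, against 0.949 in the lists outside it.

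**Figure D1:**
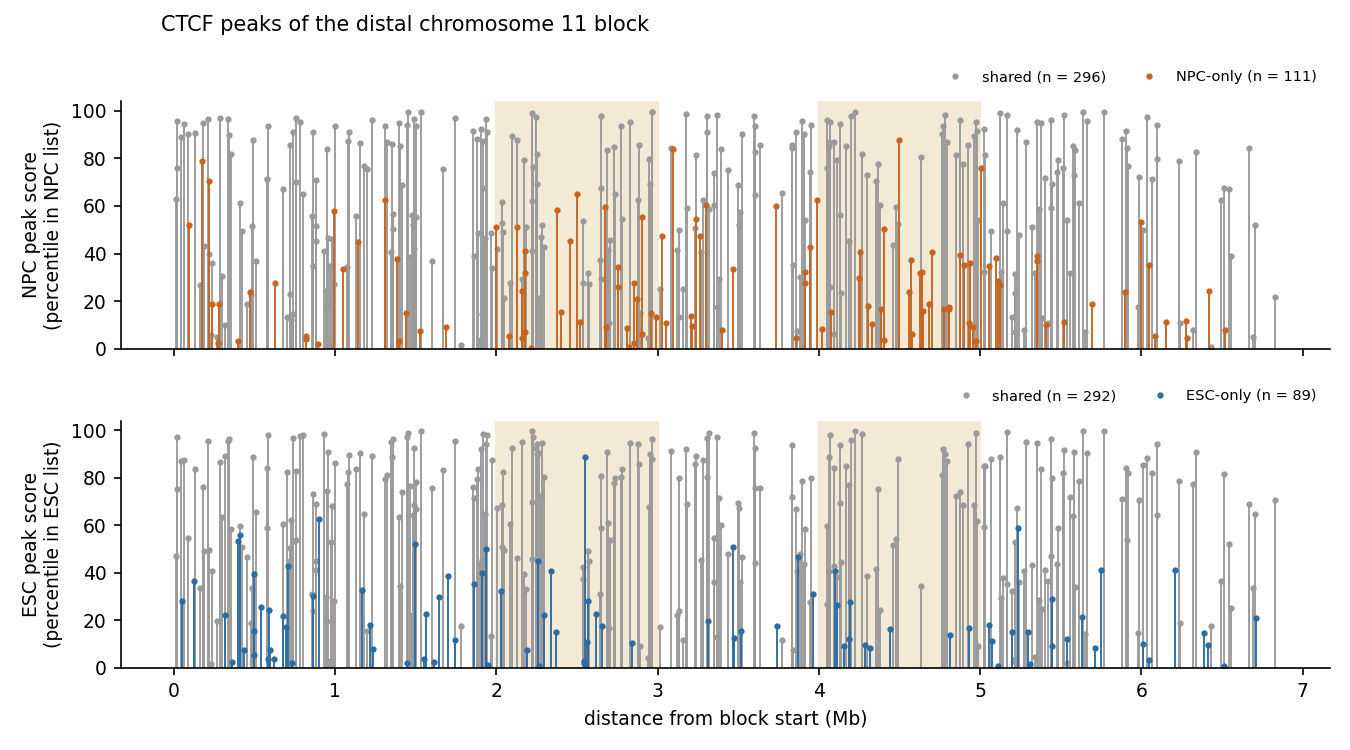
CTCF peaks of the distal block by distance from its start (Mb); each line is a peak, its height the score percentile in its own list, with NPC above (296 shared, 111 NPC-only) and ESC below (292 shared, 89 ESC-only). Shading marks the windows from 2 to 3 and 4 to 5 Mb; the coloured cell-type-only peaks are mostly low, and between the shared ESC peaks of the second shaded window a stretch with a single ESC peak can be seen.

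The comparison stretch on the same chromosome ran from 100 to 110 Mb. The block was picked for NPC-only peaks, so a lower NPC-only share in this stretch was largely built in. There 86 of 442 NPC peaks were NPC-only (19.5%, 15.9 to 23.5), beside 19.1% expected from score. Of its 490 ESC peaks 139 were ESC-only (28.4%, 24.4 to 32.6), beside 24.0% expected. The intervals of both shares overlapped those of the block. It had 0.902 NPC peaks per ESC peak. Both stretches were dense: neighbouring NPC peak centres were a median of 11060 bp apart in the block, 12437 bp in the 100 to 110 Mb stretch and 19572 bp in the whole NPC list. In ESC the spacings were 10932 bp, 11807 bp and 17945 bp.

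The surplus of NPC-only peaks lay in the middle of the block. From 2 to 5 Mb past its start (chr11:117000001-120000000), 69 of 196 NPC peaks were NPC-only (35.2%, 28.5 to 42.3), beside 20.4% expected from score. In the first 2 Mb the count was 23 of 126 (18.3%, 11.9 to 26.1), beside 19.0% expected. From 5 Mb to the end it was 19 of 85 (22.4%, 14 to 32.7), beside 20.7% expected. Of the 29.4 NPC-only peaks above expectation in the block, 28.9 lay from 2 to 5 Mb, and both flanks were near the share their scores give. This division into 3 parts, and the grouping of steps and stretches without ESC peaks below, were chosen after the counts had been seen. A higher NPC-only share from 2 to 5 Mb than in the flanks was therefore largely built in. The surplus held for the pooled count of these 3 Mb and not for each step of 250 kb. The steps from 2.5 Mb (4 of 18, 4.09 expected) and 4 Mb (2 of 18, 2.78 expected) had fewer NPC-only peaks than expected. The other steps of this part had more than expected. The ESC-only shares of these parts were 20.9% (14.8 to 28.1) from 2 to 5 Mb, 26.3% (19.1 to 34.5) in the first 2 Mb and 23.3% (14.8 to 33.6) from 5 Mb on, and all 3 intervals included the share expected from score.

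In steps of 250 kb, 18 of 28 steps had more NPC-only peaks than expected from score (64.3%, 44.1 to 81.4). For ESC-only peaks 11 of 28 did. The same count was not made for windows elsewhere. In 4 steps the interval of the NPC-only share lay above the share of the whole list. NPC-only peaks outnumbered ESC-only peaks in 14 steps, and the reverse held in 12. The 5 steps with most NPC-only peaks held 44 of the block's 111, or 39.6%, among 22.6% of its NPC peaks. The step from 2.75 Mb led with 11 NPC-only of 22 NPC peaks, where 5.99 were expected, beside 1 ESC-only of 12 ESC peaks. The step from 4.75 Mb followed with 9 of 21 (4.07 expected), beside 2 ESC-only of 14. The steps from 4.25 Mb, 4.5 Mb and 2 Mb had 8 each, of 16, 9 and 24 NPC peaks, where 3.32, 2.95 and 5.42 were expected. The 3 adjoining steps from 4.25 to 5 Mb (chr11:119250001-120000000) thus carried 49.8% of the block's surplus. The steps with most ESC-only peaks lay elsewhere, from 0.5 Mb with 9 of 20 ESC peaks (5.84 expected) and from 0.25 Mb and 2.5 Mb with 8 of 21 each (6.03 and 6.64 expected).

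**Figure D2:**
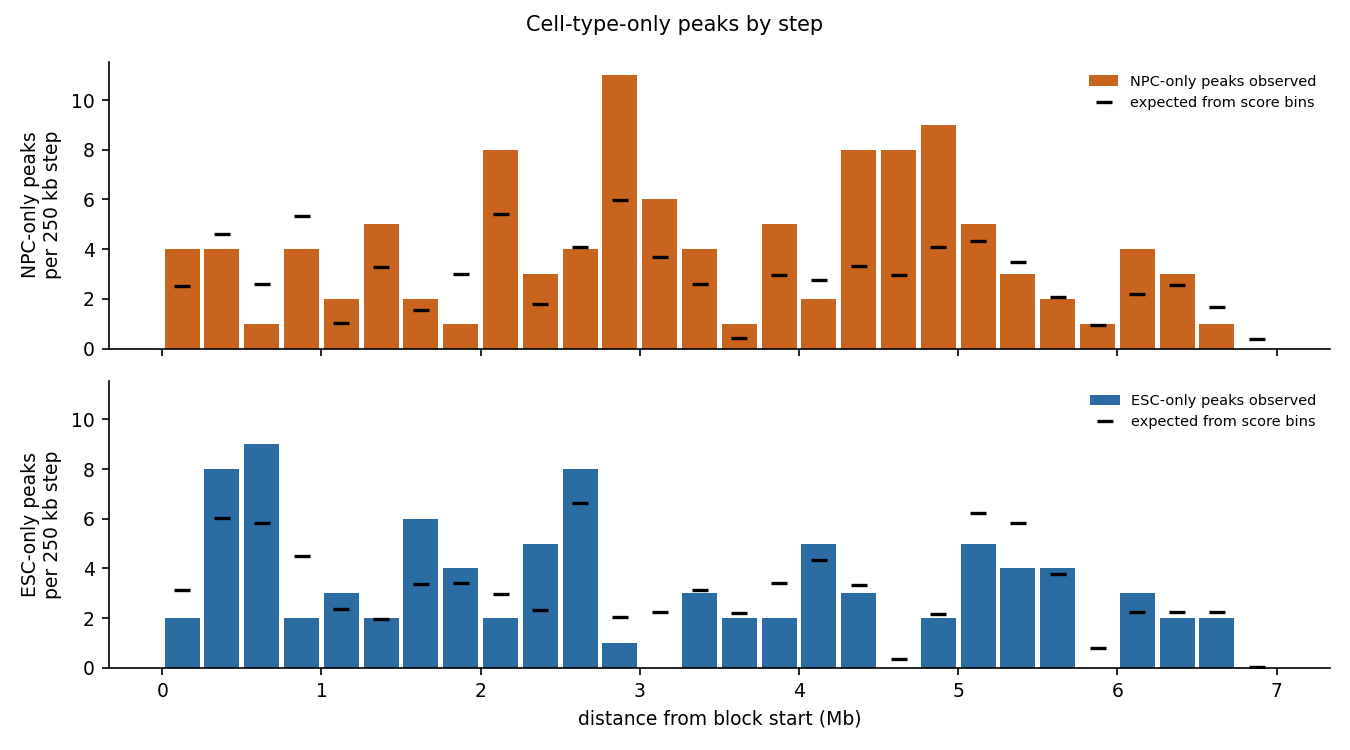
Cell-type-only peaks per 250 kb step by distance from block start (Mb), NPC-only above and ESC-only below; bars are observed counts and black dashes the counts expected from score bins. NPC-only bars pass the dash by most at 2.75 Mb (11 against 5.99) and in the 3 steps from 4.25 Mb, and the tallest ESC-only bar (9 against 5.84) stands at 0.5 Mb, where NPC had 1.

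The step from 4.5 Mb was nearly without ESC peaks. It held 9 NPC peaks, of which 8 were NPC-only, and 1 ESC peak. No ESC peak lay in the 141755 bp of chr11:119489172-119630926, which held 5 NPC-only peaks. The first of these, chr11:119498861-119499414, was the strongest NPC-only peak of the block (score 1295, percentile 88.0). The other 4 scored 178 at chr11:119559136-119559448, 258 at chr11:119572451-119572911, 114.8 at chr11:119576743-119576988 and 223 at chr11:119625522-119626005. They lay in the lower part of the list, at percentiles from 5.96 to 37.1. Next came the only site called in both cell types, with percentile 80.5 in NPC (score 1015) and 34.6 in ESC (score 309). Beyond it, chr11:119631485-119766118 again had no ESC peak in 134634 bp and held 4 NPC-only peaks with scores from 146 to 286. This stretch was therefore lined by weak NPC peaks with a strong NPC-only peak at its near end.

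On both sides of that stretch the NPC-only peaks stood between shared ones. From 4.75 to 5 Mb all 12 shared NPC peaks were paired 1-to-1, and 9 of the 12 had the higher percentile in NPC. Over all pairs of the lists 47.1% had, and this step was singled out for its NPC-only count. The 9 NPC-only peaks of the step scored from 108 to 276. Over the 3 steps, 23 of the 24 NPC peaks in the lower 50% of the list by score were NPC-only (95.8%, 78.9 to 99.9), where 39.5% was expected. Of the 22 in the upper 50%, 2 were NPC-only (9.09%, 1.12 to 29.2), where 3.82% was expected. Most NPC-only peaks of these steps were thus weak, as NPC-only peaks are elsewhere in the list. The steps were grouped for their NPC-only counts, so shares above expectation were built in.

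The window from 2 to 3 Mb (chr11:117000001-118000000) was of mixed make-up. The widest stretch of the block without an ESC peak, chr11:117371731-117535810 (164080 bp), lay there and held 5 NPC-only peaks with scores from 129 to 629. The strongest of them was chr11:117503523-117503956, 31854 bp from the nearest ESC peak. Directly beyond the next 2 shared sites came the opposite arrangement: a run of 6 ESC-only peaks in 24801 bp at chr11:117541368-117566168, with no NPC peak inside. That run included the strongest ESC-only peak of the block, chr11:117547039-117547779 (score 1463, percentile 88.8). Over the whole window, 26 of 73 NPC peaks were NPC-only (35.6%, 24.7 to 47.7; 23.7% expected) and 16 of 62 ESC peaks were ESC-only (25.8%, 15.5 to 38.5; 22.6% expected). In the window from 4 to 5 Mb (chr11:119000001-120000000) the counts were 27 of 64 NPC peaks (42.2%, 29.9 to 55.2; 20.5% expected) and 10 of 46 ESC peaks (21.7%, 10.9 to 36.4; 22.2% expected).

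NPC-only peaks of the block were mostly weak, as in the rest of the list. Their median score was 179 (147 to 223), against 168 (165 to 169) for NPC-only peaks outside the block. Shared NPC peaks of the block had a median of 708 (555 to 865), against 521 (515 to 530) outside. In the 100 to 110 Mb stretch it was 594 (518 to 661), with an interval that overlapped that of the block. Shared ESC peaks had a median of 929 in the block, 931 in that stretch and 741 outside the block. For ESC-only peaks the median was 171 (148 to 203) in the block, against 193 (190 to 196) outside. Among NPC peaks above the list median score, 20 of 220 block peaks were NPC-only (9.09%, 5.64 to 13.7), beside 4.19% expected from score. Among those below it, 91 of 187 were (48.7%, 41.3 to 56.1), beside 38.7% expected. Without the 2 windows, which were picked for their counts, the share below the median was 38.5% (45 NPC-only peaks, 29.6 to 47.9), beside 38.4% expected, and above it 13 of 153 (8.50%, 4.6 to 14.1), beside 4.05% expected. For ESC the shares were 3.37% (1.36 to 6.81) above and 47.4% (39.8 to 55.1) below the median, beside 3.74% and 47.1% expected.

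**Figure D3:**
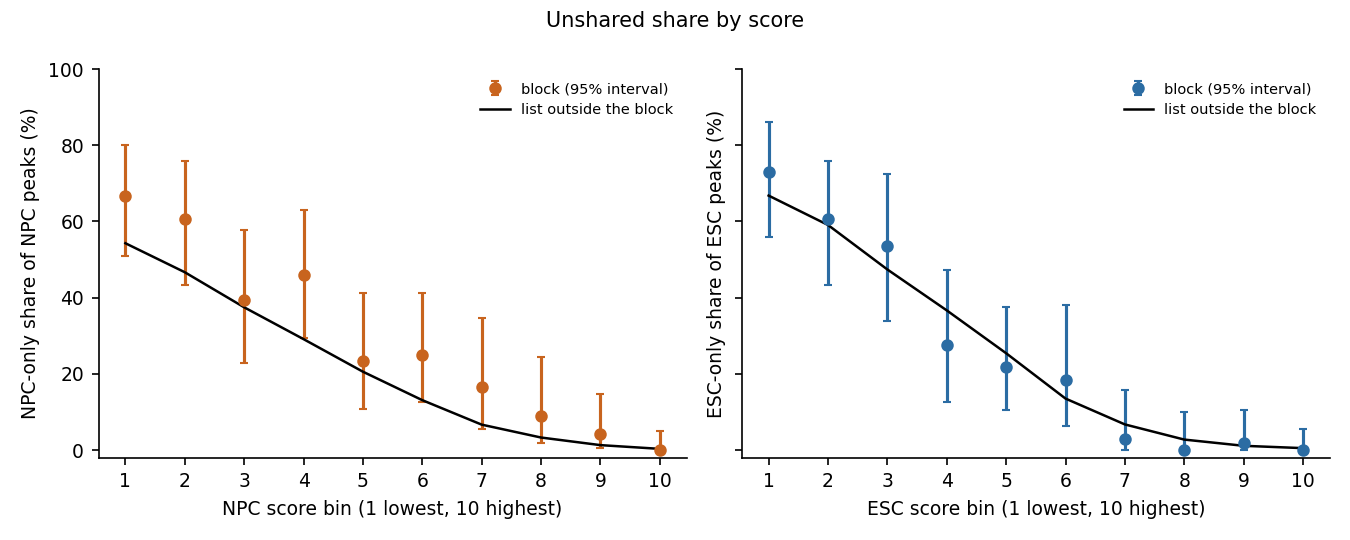
NPC-only share of NPC peaks (left) and ESC-only share of ESC peaks (right), in %, by score bin; points are the block with 95% intervals and lines the list outside it. NPC points lie above the line in bins 1 to 9, with intervals that take in the line in most of them, and ESC points lie on both sides of it.

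After the chr11:119498861-119499414 peak, the strongest NPC-only peaks over 1 kb from any ESC peak were chr11:118093491-118093994 (score 1127, 11028 bp from the nearest ESC peak), chr11:115175517-115176001 (score 961, 7354 bp away) and chr11:120004030-120004557 (score 876, 15452 bp away). The other 6 of the first 10 scored from 528 to 629. The first 10 were spread along the block and were not limited to the 2 windows. The next ESC-only peaks after chr11:117547039-117547779 were weaker, with scores of 753 at chr11:115903007-115903656, 677 at chr11:120234262-120234833, 618 at chr11:115407883-115408623 and 556 at chr11:116497834-116498599. In all, 20 NPC-only peaks (18%) and 7 ESC-only peaks (7.87%) of the block scored above the median of their list. From 100 to 110 Mb 15.1% of NPC-only and 10.8% of ESC-only peaks did, and outside the block 11.7% and 9.54% did. NPC-only peaks of the block were a median of 6660 bp from the nearest ESC peak, against 6068 bp in the 100 to 110 Mb stretch and 11142 bp outside the block. Of the block's NPC-only peaks 11 (9.91%) lay within 1 kb of an ESC peak, against 12.8% in that stretch and 7.65% outside the block.

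At sites called in both cell types the ranks of NPC and ESC had a median difference near 0. Over the 288 pairs the median NPC percentile was 69.1 (61.4 to 75.5) and the median ESC percentile 69.5 (64.8 to 75.6). The median of NPC minus ESC was 0.47 points (-1.38 to 2.19), and NPC had the higher percentile in 149 of 288 pairs (51.7%, 45.8 to 57.6), where 47.1% of all pairs had. NPC stood at least 25 points higher in 38 pairs (13.2%), where 11.9% of all pairs did, and ESC at least 25 points higher in 52 (18.1%), where 16.4% did. Given the ESC percentile, the mean NPC percentile was 63.2 in the block, against 60.5 expected from pairs elsewhere in the same ESC bin. Given the NPC percentile, the mean ESC percentile was likewise above expectation, at 64.4 against 63.1. Outside the block the median difference was -1.20 points (-1.43 to -0.96), and -1.80 points (-2.92 to -1.02) in the rest of chromosome 11. In distal ends of the same length on the other autosomes it was -0.94 points (-1.77 to -0.16). In the 100 to 110 Mb stretch the median difference over 343 pairs was -4.37 points (-6.92 to -1.58), and NPC was higher in 40.8% (35.6 to 46.2). Its mean NPC percentile was 60.2, against 60.7 expected, and its mean ESC percentile 65.0, against 61.0 expected.

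The medians at the pairs of the 2 windows lay on either side of 0. From 2 to 3 Mb NPC was higher in 16 of 45 pairs, with a median difference of -7.73 points (-18.1 to 0.54). From 4 to 5 Mb it was higher in 23 of 35 pairs, with a median of 2.72 points (-0.04 to 21.0). Given the ESC percentile, the mean NPC percentile was 58.1 against 62.9 expected in the first window and 76.0 against 61.9 expected in the second. Given the NPC percentile, the mean ESC percentile was 67.8 against 59.2 expected in the first and 67.2 against 70.7 expected in the second. The difference between the windows was not tested, and both medians had intervals that included 0.

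**Figure D4:**
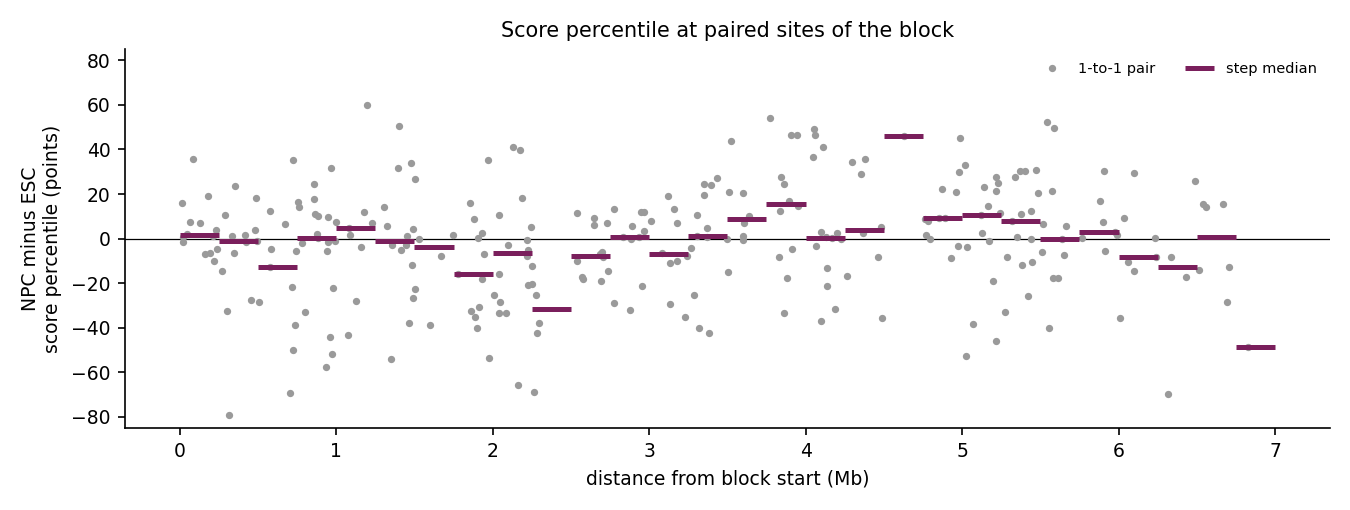
NPC minus ESC score percentile (points) at each of the 288 pairs by distance from block start (Mb), with the median per 250 kb step as a bar. Points spread to both sides of 0 along the block, and 15 of the 28 bars lie above 0. The lowest bar with more than 1 pair is the step from 2.25 Mb (-31.5 points over 6 pairs). The bars from 4.5 Mb (1 pair) and 4.75 Mb (9.03 points over 12 pairs) lie above 0. Those from 3.75 Mb (15.7 points over 12 pairs) and 5 Mb (10.5 points over 15 pairs) are higher than the one from 4.75 Mb.

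The pairs that moved furthest were single sites. NPC was ranked higher by 60.1 points at chr11:116196700-116197483 (NPC percentile 75.5, ESC 15.4) and by 53.9 points at chr11:118772494-118773258 (65.6 in NPC, 11.7 in ESC). The other 3 of the first 5 gained from 49.6 to 52.1 points, at chr11:120541064-120541637, chr11:116404384-116404982 and chr11:120588564-120589021. In the other direction chr11:115316912-115317303 was at percentile 9.76 in NPC and 89.0 in ESC, a difference of -79.3 points. The NPC peaks at chr11:121319182-121319406, chr11:115702417-115702716, chr11:117262927-117263272 and chr11:117162040-117162466 followed with -69.8 to -65.7 points. The first 3 sites by strength in both lists, chr11:119224651-119225541, chr11:116532183-116533093 and chr11:120637144-120637951 by their NPC peaks, scored 3100 in both lists. Scores pile up at that value, so the order among them is arbitrary.

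The choice rested on NPC-only counts and did not directly use the scores or widths within each list. NPC-only peaks are mostly weak, so scores are still not independent of the choice. The highest of the 10 score bins held 71 of the 407 NPC peaks of the block (17.4%, 13.9 to 21.5) and 63 of its 381 ESC peaks (16.5%, 12.9 to 20.7), against 9.94% of NPC and 9.95% of ESC peaks outside it. From 100 to 110 Mb those shares were 15.2% (11.9 to 18.8) in NPC and 14.5% (11.5 to 17.9) in ESC, with intervals that overlap those of the block. Widths were set beside those of peaks of like score. In NPC 56.8% (51.8 to 61.6) and in ESC 56.4% (51.3 to 61.5) exceeded the median width of their score bin outside the block, where 49.8% of the peaks of each list outside it did. Median widths in the block were 470 bp in NPC and 623 bp in ESC, against 433 bp and 573 bp outside it. From 100 to 110 Mb 53.2% (48.4 to 57.9) of NPC and 54.7% (50.2 to 59.2) of ESC peaks exceeded that width, and in the distal ends of the other autosomes 53.2% and 52.7% did. Without the 2 windows the shares of the block were 53.7% (47.6 to 59.8) in NPC and 55.3% (49.2 to 61.3) in ESC, with intervals that took in the 49.8% outside.

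Set beside distal ends of the same length on the other 18 autosomes, the block had the highest NPC-only share, 27.3%. The others had 14.4% to 26.6%, and 21.2% over all of them. Because the block was picked for NPC-only peaks, its high rank by this share and by the surplus was largely built in. The interval of its share overlapped those of many, among them chromosome 3 (26.6%, 17.3 to 37.7), chromosome 8 (26.4%, 21.1 to 32.3) and chromosome 2 (26.2%, 19.3 to 34.0). By the surplus over expectation it was second, with 7.23 points, behind 7.33 points on chromosome 7 and ahead of 6.69 on chromosome 15. The ends of chromosomes 7 and 15 had ESC-only shares at -5.0 and -4.63 points from expectation and pairs ranked higher in NPC by medians of 5.89 and 6.58 points. In the block those values were -0.08 and 0.47 points. Some other ends were like the block in this: the end of chromosome 2 had a surplus of 6.0 points for NPC-only, 2.57 for ESC-only and a median pair difference of 0.14 points, and the end of chromosome 3 had 4.6, -0.55 and -2.06 points. The stretch on chromosome 4 from 100 to 110 Mb, also known from earlier results for its NPC-only peaks, had 38.4% NPC-only peaks (33.1 to 44.0; 22.1% expected), 18% ESC-only peaks (13.3 to 23.5; 29.0% expected) and a median pair difference of 10.4 points (7.93 to 14.5).

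**Figure D5:**
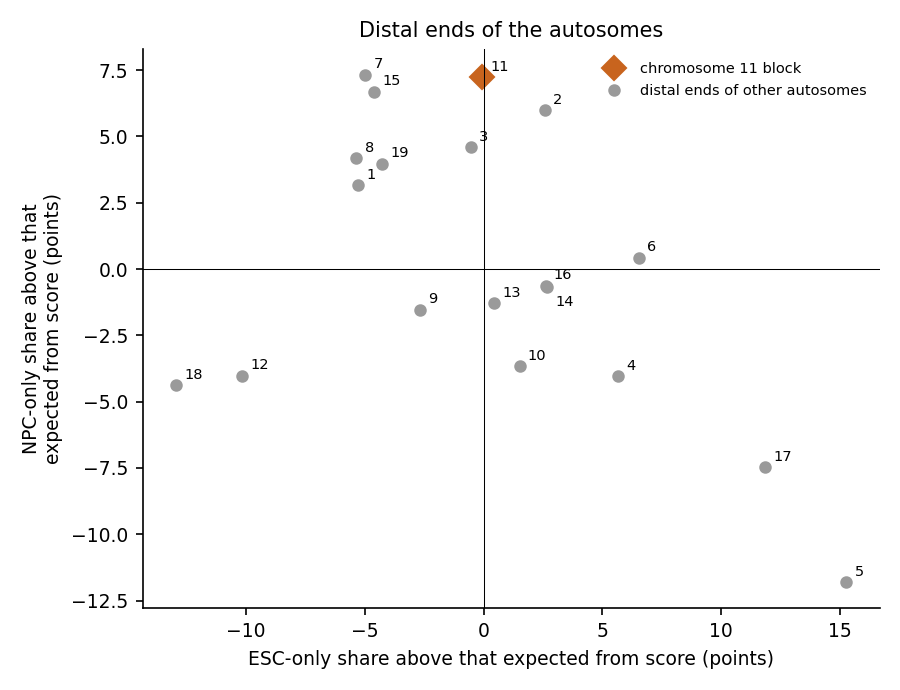
NPC-only share above that expected from score (points, vertical) against ESC-only share above expected (points, horizontal) for the distal end of each autosome, labelled by chromosome number. The chromosome 11 block (diamond) lies at 7.23 and -0.08 points; chromosomes 7 and 15 are about as high but lie left of it.

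Without both windows the block had 58 NPC-only of 270 NPC peaks (21.5%, 16.7 to 26.9; 18.9% expected), close to the 21.3% of the list outside the block. The windows were themselves picked for their counts, so a fall on leaving them out was built in.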

How the data were processed

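The deposited files are 1 MACS peak list per library, per the file headers, with mm9 coordinates, per the submitters' processing notes. The deposited score of each peak was used as given. For its definition, the aligner, the MACS version, the calling threshold and the control, the sources used here state nothing. Both track names end in CONTROL, which was not interpreted. All scores were at least 100.0.

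Peaks were placed by their centre and written 1-based. Overlap of at least 1 bp was computed in Python 3.11.15 (numpy 2.4.6, pandas 2.3.3, scipy 1.17.1) and checked against bedtools 2.31.1. The overlap classes and the expected shares were also tried on simulated lists, and the other measures were not. A pair is an NPC and an ESC peak that overlap each other and no other peak. Expected shares apply the unshared rate of each of 10 score bins outside the block. Share intervals are Clopper-Pearson 95%, median intervals come from order statistics; both treat peaks as independent. Named peaks followed a rule on score, percentile difference and position. The block, the rule and the measures were chosen with earlier results of these data known. Neither mm9 sequence nor mm9 gene positions were used, so peaks are named by position only and the planned look at the CTCF motif and genes was not made. Plots were drawn with matplotlib 3.10.9.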

Additional observations from a re-analysis of the deposited data

How the results depend on the processing

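The block was picked for its NPC-only peaks in these same lists. A surplus under other settings was therefore largely built in and supports nothing by itself. The NPC-only share of the block was above that expected from score under every alternative run, by 2.28 to 9.34 points. It moved outside its interval of 23.0 to 31.9% with 50% reciprocal overlap (33.9%; ESC-only 29.4%), with peak centres within 100 bp (32.2%), with the upper 50% by score against the whole other list (9.09%; ESC-only 3.37%) and without the windows from 2 to 3 and 4 to 5 Mb (21.5%, 2.53 points above expected). In 2 alternatives added after seeing the data it was 21.3%, or 2.28 points above expected, without the 5 steps with most NPC-only peaks, and 23.8%, or 4.09 points, without the 3 steps from 4.25 to 5 Mb. Shares outside the block moved alike with the overlap rule, to 28.0% under reciprocal overlap and 26.5% by centre distance. With peaks within 1 kb, lists of equal length or a start 1 Mb lower or higher, the share stayed inside that interval. With 20 score bins the surplus was 7.23 points and with rates from chromosome 11 alone 8.64 points, against 7.23 as reported. For ESC-only peaks the difference from expectation changed sign among the alternatives. It ran from -1.96 points with rates from chromosome 11 alone to 0.80 points without the 5 steps, against -0.08 as reported. Steps of 500 kb had at most 17 NPC-only peaks, and 9 was the most when steps were shifted along. The median pair difference ranged from 0.12 to 1.26 points, inside its interval throughout. No paired analysis was possible because each cell type had 1 library, and for the same reason no library could be left out. Since the lists hold no depth, sites just under the calling limit in 1 library cannot be told from absent ones.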

Other observations

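These values place single stretches of the block within the whole NPC list. Among 8638 windows of 250 kb with an NPC peak, 2 held 11 NPC-only peaks, the highest count of any, and the step from 2.75 Mb was one of them. The step from 4.5 Mb had 9 NPC peaks, and that number was also the minimum for the next ranking. Among the 2133 windows with at least 9 NPC peaks, 3 had an NPC-only share at or above its 88.9% (51.8 to 99.7), the step itself included. For ESC, 76 windows held at least as many ESC-only peaks as the 9 of the step from 0.5 Mb, and the highest count of any was 17. These windows were ranked after their counts were seen.

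Along the NPC list of the block, 61 of the 111 NPC-only peaks had another NPC-only peak as a neighbour (55.0%, 45.2 to 64.4), in 24 runs of at least 2, of which 3 held 4 or more. Outside the block 47.1% of NPC-only peaks did, and a block picked for many NPC-only peaks has more such neighbours by that choice. Along the ESC list 40 of the 89 ESC-only peaks did so (44.9%, 34.4 to 55.9), in 16 runs, of which 2 held 4 or more, and outside the block 52.3% did. ESC peaks that spanned 2 or more NPC peaks numbered 4 of 381 in the block (1.05%) and 403 of 53770 outside it (0.749%), and no NPC peak there spanned 2 or more ESC peaks.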
